A study of Homo sapiens with 2 samples.

Results

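Of the 2692 peaks listed for RNA recovered with HA-precipitated GATA2, 14 lay within 2 kb of a site listed as resembling ribosomal RNA (rRNA). Of these, 10 were at sites listed as nuclear rRNA-like and 4 at sites listed as MTRNR2L copies of mitochondrial rRNA. The members were chosen by position: a peak counted if its interval came within 2 kb of one of 19 listed hg19 sites, 11 nuclear and 8 MTRNR2L. The sites were listed with the positions of these same peaks in view, so the counts, scores and lengths below are a description with no test. Both libraries of the series, 1 HA immunoprecipitate and 1 input, came from K562, a human chronic myelogenous leukaemia line, carrying a GATA2 transgene. All cells had doxycycline at 1 µg/mL for 5 hours and 4-thiouridine, a photoreactive uridine analogue, at 100 µM for 24 hours, and were crosslinked at 365 nm with 0.3 J/cm2. The assay, a modified single-end enhanced CLIP, sequences the RNase-trimmed RNA that stays crosslinked to a precipitated protein. The deposited peaks are those of the immunoprecipitate. Input values were not analysed here, there is no replicate, and the read depth behind a peak is unknown.

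Nuclear ribosomal RNA is transcribed in the nucleolus as a long precursor from tandem gene repeats and is cut into the 18S RNA of the small ribosomal subunit and the 28S RNA of the large one, among others. It is the most abundant RNA of a growing cell, and its fragments are commonly recovered in CLIP libraries. Mitochondria make their own rRNAs, of which MT-RNR2 encodes the 16S RNA of the large subunit. Pieces of both kinds of rRNA sequence were copied into other chromosomes during evolution. The MTRNR2L genes are nuclear copies of MT-RNR2, named for an open reading frame like that of humanin, a small peptide encoded within MT-RNR2. A read from rRNA can align to such copies as well as to the rRNA gene. How the authors placed reads with several equally good positions is not given in the sources used here, so a peak at a copy does not tell which gene its RNA came from.

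The label of these sites could be checked only in part, since no hg19 annotation was at hand. All 8 listed MTRNR2L genes were found by symbol in the RefSeq gene table of GRCh38, where each is a pseudogene. Each lies on the chromosome of 1 listed MTRNR2L site, and sites were paired with the listed genes by chromosome. Chromosome 10 carries MTRNR2L7, which is not listed, as well as MTRNR2L5, so the pairing there rests on the list of symbols. For the nuclear sites, only chromosome 2 of their 10 chromosomes carries an rRNA pseudogene in that table. It has 3 in the table, RNA5-8SP5, an 18S copy named LOC110467533 and RNA28SP, in this order. Between the last 2 lie the microRNA gene MIR663B, the pseudogene CDC27P1 and the long noncoding RNA gene LOC105373622. RNA28S5 and RNA18S5, the older symbols of mature 28S and 18S genes, are synonyms of 2 entries each, 1 on chromosome 22 and 1 on an unplaced sequence. The peak list named 24 chromosomes, 1 to 22, X and Y. It held 0 peaks on the mitochondrial chromosome, which carries MT-RNR1 and MT-RNR2, and 0 peaks on unplaced sequences. Whether reads were aligned to those sequences is not given in the sources used here.

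For the sites with a peak, the RefSeq sequences at hand (GRCh38.p14) cover only microRNA genes in or beside annotated rRNA copies on 2 of their chromosomes. MIR4485 lies inside MTRNR2L8, and MIR663B sits beside the 18S copy on chromosome 2. They are shown as the stretches of, or next to, the rRNA copies whose sequence was at hand, at chr11:10508270-10508326 (GRCh38.p14, minus strand) and chr2:132256966-132257080 (GRCh38.p14, minus strand). Capitals mark the mature microRNA in each hairpin and the seed, bases 2 to 8, in each mature sequence. Positions were not converted between builds, so whether a peak covers either hairpin was not determined, and the peaks carry no strand.
MIR4485: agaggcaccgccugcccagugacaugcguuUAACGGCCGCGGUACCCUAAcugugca
hsa-miR-4485-3p: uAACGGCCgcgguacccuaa
MIR663B: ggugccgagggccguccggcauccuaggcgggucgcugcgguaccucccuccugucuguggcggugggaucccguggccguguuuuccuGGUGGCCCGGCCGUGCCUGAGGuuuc
hsa-miR-663b: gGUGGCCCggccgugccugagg

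The sites listed as nuclear rRNA-like carried peaks with high scores. Of the 11 nuclear sites, 10 had a peak, each with 1. The lowest score was 116.32, the median 238.54 and the highest 606.61, against a median of 65.9 over all 2692 peaks. The score is the authors' own value per peak, on a scale the file does not state, and serves here only to rank peaks within the list. All 10 scored above 100, against 16.0% of all peaks, and 7 scored above 200, against 2.53% of all peaks. Their lengths ran from 380 to 2025 bp with a median of 683 bp, against 851 bp over all peaks, and 8 of the 10 were shorter than 1000 bp, as were 61.2% of all peaks.

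The strongest was on chromosome X. That peak, from 108297343 to 108298103, scored 606.61 over 761 bp and ranked 3 in the whole list. It began 5 bp before the listed site at 108297348 and ran 755 bp past it. The next, on chromosome 1 from 91852515 to 91853156, scored 417.26 over 642 bp and ranked 6. These were the highest-scoring nuclear peaks, and neither reached 1000 bp.

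The peak on chromosome 2, from 133011654 to 133013678, scored 354.66 and ranked 9. At 2025 bp it was the longest nuclear member and covered the whole listed interval from 133011824 to 133013298, with 170 bp before it and 380 bp after it. It also had the closest company among the nuclear members. Another peak, from 133036249 to 133039241, began 22951 bp past the listed interval and scored 311.26 over 2993 bp, rank 12. That neighbour is the nearest peak outside the 2 kb limit of any site and is not counted as a member. The farthest member inside the limit lay 1578 bp from its site, so no peak lay between these distances.

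On chromosome 8, the peak from 70601917 to 70602857 scored 307.8 over 941 bp and ranked 13. A group of 3 peaks followed with scores within 20 of one another. These were the peak on chromosome 6 from 133593947 to 133594391, with 240.32 over 445 bp, the peak on chromosome 17 from 33477857 to 33478484, with 236.76 over 628 bp, and the peak on chromosome 5 from 71146488 to 71147211, with 221.8 over 724 bp. They ranked 29, 31 and 39, so 7 of the 10 nuclear peaks stood among the 50 highest of the list.

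The other 3 nuclear peaks scored below 200. On chromosome 7, the peak from 68527370 to 68527989 scored 162.42 over 620 bp, and on chromosome 12 the peak from 127649847 to 127651281 scored 149.92 over 1435 bp. The lowest was on chromosome 4 from 70296384 to 70296763, with 116.32 over 380 bp, the shortest of all 14 members. It still ranked 287, above 89.3% of the list. Within the nuclear set the highest score was 5.22 times the lowest, a spread that cannot be set against replicate error with 1 library.

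**Figure D1:**
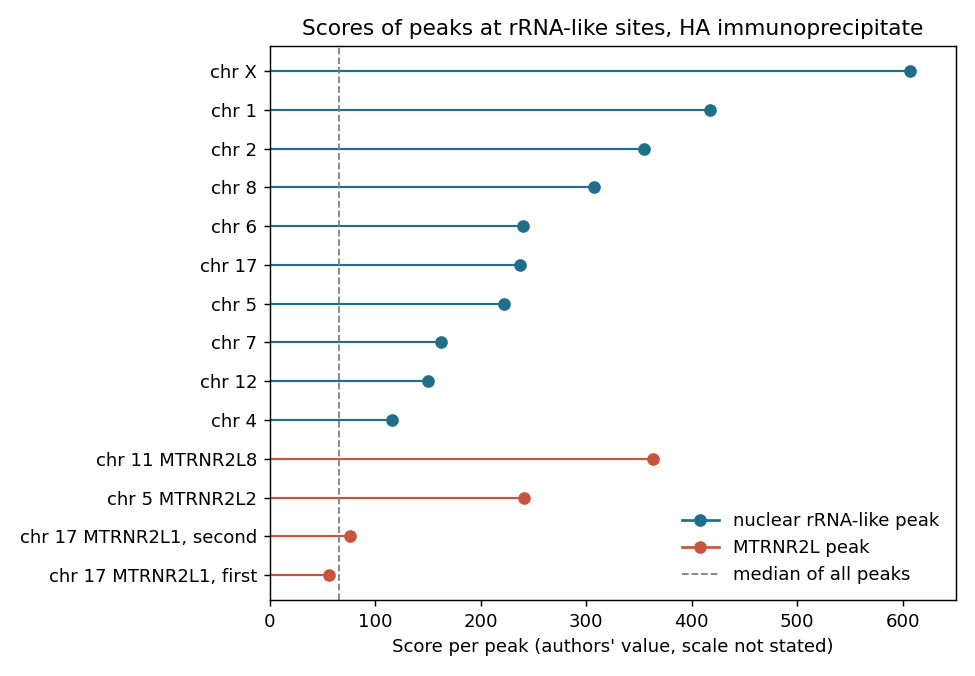
Score of each of the 14 member peaks (x axis, the authors' value, scale not stated), with nuclear rRNA-like peaks above and MTRNR2L peaks below, each ordered by score. The dashed line is the median of all 2692 peaks, 65.9, and only the first of the MTRNR2L1 peaks, at 55.94, lies left of it.

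The nuclear site without a peak was on chromosome 12 at 20704285. Its nearest peak, from 19735743 to 19737619, was 0.967 Mb away and scored 54.12. A site with no listed peak says only that none passed the authors' unstated threshold, and the lowest score in the list is 50.

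Of the 4 MTRNR2L peaks, 2 were broad and high-scoring, and the other 2, both at MTRNR2L1, were short and low-scoring. Only 3 of the 8 sites had a peak, and 2 of the 4 peaks scored above 100, against 16.0% of all peaks. The peak at MTRNR2L8, on chromosome 11 from 10529177 to 10531762, scored 362.89 over 2586 bp and ranked 8. It began 226 bp before the listed interval, from 10529403 to 10531969, and ended 207 bp before the end of it. In the GRCh38 table MTRNR2L8 lies between AMPD3, which encodes an AMP deaminase, and RNF141. The peak at MTRNR2L2, on chromosome 5 from 79945202 to 79947870, scored 241.09 over 2669 bp and ranked 28. It ran from 617 bp before the listed position to 2051 bp after it. The MTRNR2L8 and MTRNR2L2 peaks were the longest of the 14 members and stood in length ranks 241 and 229 of the list.

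MTRNR2L1 on chromosome 17 had a pair of small peaks and no peak over the listed position, 22022437. The first, from 22020426 to 22020859, scored 55.94 over 434 bp and ranked 2052, below the list's median. The second, from 22022578 to 22023069, scored 76.34 over 492 bp and ranked 927. The first ended 1578 bp before the position and the second began 141 bp after it. In the gene table MTRNR2L1 stands between MTCYBP13 and MTND1P15, copies of the mitochondrial genes for cytochrome b and for a subunit of NADH dehydrogenase. How far these copies lie from MTRNR2L1 or from either peak was not determined. The peaks were 1718 bp apart, the only members with another peak within 10 kb, which 20.2% of all peaks had.

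The other 5 MTRNR2L sites had no peak. MTRNR2L3, on chromosome 20 and within the span of RAE1, which encodes an mRNA export factor, had its nearest peak 129 kb away, with a score of 141.73. MTRNR2L6, among the T cell receptor beta variable segments on chromosome 7, and MTRNR2L11 on chromosome 1 had theirs 285 and 339 kb away, with scores of 52.41 and 200.64. For MTRNR2L4 on chromosome 16 the distance was 729 kb and the score 60.25. MTRNR2L5, within the span of the protocadherin gene PCDH15 on chromosome 10, was the most isolated, with the nearest peak 5.33 Mb away and a score of 50.58. The gene table holds 5 further MTRNR2L genes, MTRNR2L7, MTRNR2L9, MTRNR2L10, MTRNR2L12 and MTRNR2L13, for which no hg19 position was at hand and which were not analysed here.

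**Figure D2:**
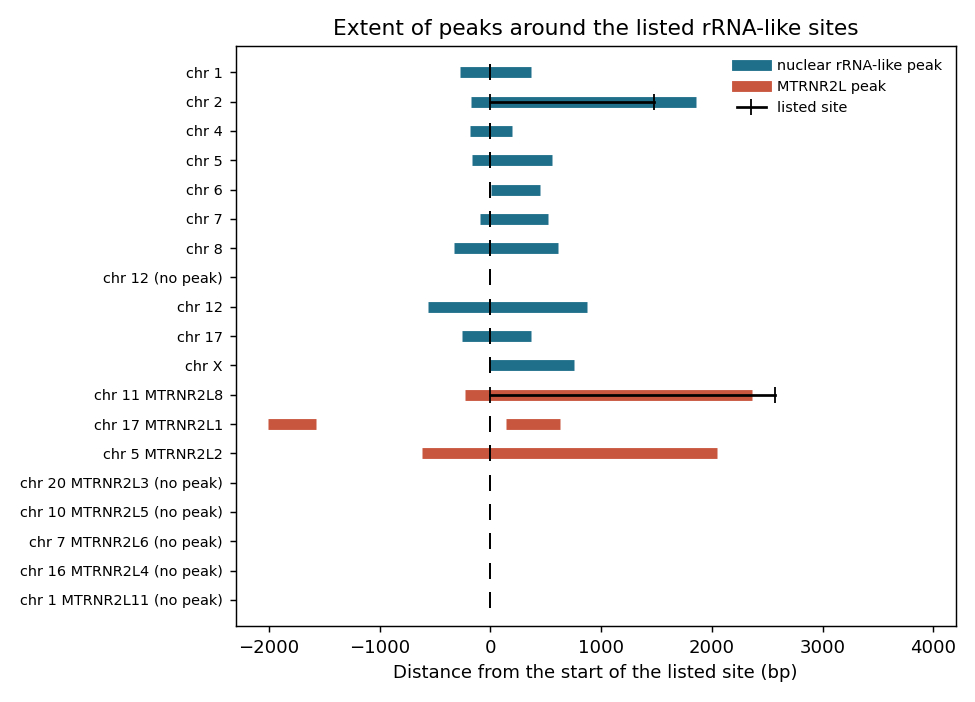
Extent of each member peak (coloured bars) relative to the start of its listed site (x axis, bp; black ticks and lines mark the site), with 1 row for each of the 19 sites. In 11 of the 14 member peaks the bar overlaps its site, the exceptions being the peak on chromosome 6, which begins 3 bp after it, and the MTRNR2L1 pair. The 6 sites without a peak show the tick alone.

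The nuclear peaks had a median length of 683 bp and a median score of 238.54, while the 4 MTRNR2L peaks had medians of 1539 bp and 158.715, each of which falls in the wide gap between their broad and their short pair. The order of the classes in score rests on the MTRNR2L1 pair: where the site had to lie inside the peak, which leaves out that pair and the chromosome 6 peak, the median scores were 236.76 for 9 nuclear peaks and 301.99 for 2 MTRNR2L peaks, with median lengths of 724 and 2627.5 bp. For the 9 nuclear peaks with a single listed position, the peak began between 560 bp before the position and 3 bp after it, and reached 198 to 874 bp past it. Each of these 9 thus reached further after the listed position than before it. The listed positions were drawn up beside this list, and what part of an rRNA they mark is not known here.

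Together, 13 of the 14 peaks scored above the overall median of 65.9, and their own median was 238.54. They numbered 5 of the 13 peaks above 300, which 0.483% of all peaks reached, 9 of the 68 above 200 and 12 of the 431 above 100. Members thus made up 38.5% of the peaks above 300, 13.2% of those above 200 and 2.78% of those above 100, and these peaks were 35.7%, 64.3% and 85.7% of the members. The highest 10 peaks of the list included 4 members, on chromosomes X, 1, 11 and 2. A score above 200 over less than 1000 bp, found in 1.56% of all peaks, was held by 6 members, all of them nuclear. It was not particular to them. Of the 17 peaks at the 5S rRNA genes on 1q42, described below, 5 had it too, or 29.4%. The member sites were chosen from this list, so the members' shares describe the choice and support nothing about the copies.

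**Figure D3:**
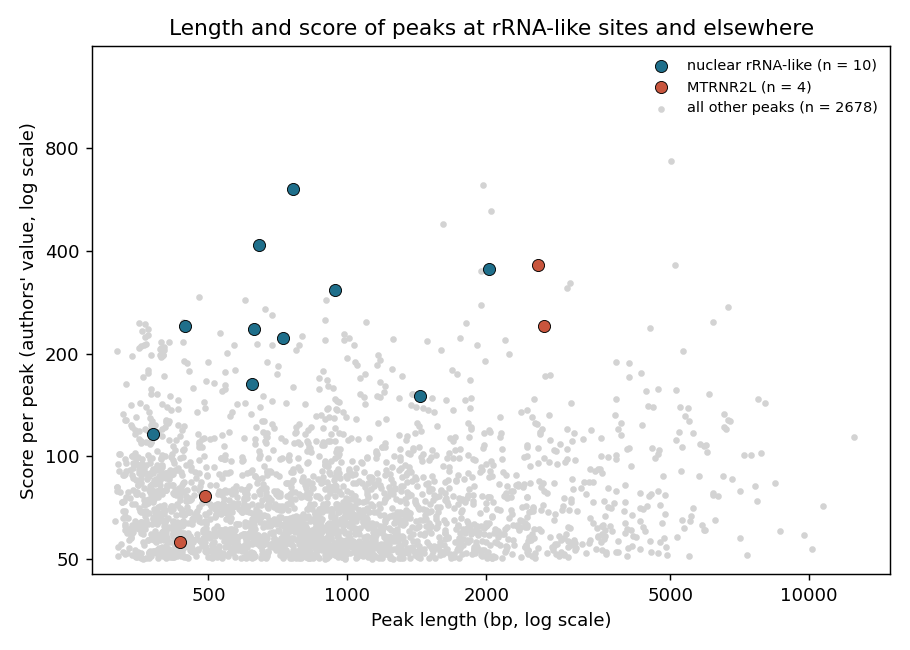
Length (x axis, bp, log scale) against score (y axis, the authors' value, log scale) for the 10 nuclear rRNA-like peaks, the 4 MTRNR2L peaks and the 2678 other peaks. Of the nuclear peaks, 8 lie left of 1000 bp and all 10 above a score of 100, while the MTRNR2L peaks form a broad pair of 2586 and 2669 bp and a short pair of 434 and 492 bp.

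The median distance to the nearest other peak was 257 kb for the 14 members and 1109 kb for the 10 nuclear ones, against 119 kb for all peaks. The distance ranged widely, and the chromosome 2 member had another peak 22570 bp away. The most isolated was the peak on chromosome 8, with no other peak within 2.70 Mb. Between length and score, Spearman's rho was 0.61 and Pearson's r 0.27 over the 14 members, all from 1 library, and -0.01 and 0.10 over all 2692 peaks. Within the 10 nuclear peaks rho was 0.39 and r 0.14, and no difference between these values was tested. The run of 17 closely spaced peaks at the 5S rRNA genes on 1q42, an rRNA family that is transcribed apart from the others, was tighter in score. Its highest score was 1.57 times the lowest, 137.33, and its median was 197.77, with lengths of 393 to 943 bp. The 14 members spanned 10.8-fold in score and lay on 11 chromosomes.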

How the data were processed

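The deposited file is a peak list of 1 HA immunoprecipitate with chromosome, start, end, name and score. The submitters' processing notes name the build hg19 and, without their roles, bedtools, SAMtools, Bowtie2, cutadapt and UMI-tools 1.0.0. Peak names start with MACS. Its version, threshold and control, and the handling of reads with several positions, are also not given in the sources at hand. The score per peak and the other deposited values, start and end in bp, are the authors'. Positions are given counted from 1.

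Members and lists were chosen with earlier results of these data known. Peaks within 2 kb of a listed site were taken by interval distance, and every member is named. The listed MTRNR2L genes were paired with sites by chromosome in the RefSeq table of GRCh38.p14, whose coordinates were not set against hg19. The 5S run was the longest on chromosome 1 with midpoints under 5000 bp apart, a rule set after seeing the data. With 1 library and members chosen from its peaks, no test was made, and depth is unknown. The assignment of peaks to sites by distance was checked on simulated positions, which bears on the code alone. Values were computed with pandas 2.3.3, numpy 2.4.6 and scipy 1.17.1 in Python 3.11.15 and drawn with matplotlib 3.10.9.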

Additional observations from a re-analysis of the deposited data

How the results depend on the processing

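The 9 summary values were recomputed with sites required to lie inside the peak (0 bp), with a limit of 10 kb and with peaks within 1000 bp merged. The limit of 10 kb and the merging changed none of the 9, and neither could have. No peak lay between 1578 and 22951 bp from any site, and no member had another peak closer than 1718 bp. With the site inside the peak, 11 members were left, and the share with a score above 100 was 100% in place of 85.7%, since both MTRNR2L1 peaks fell away. By the same loss of peaks, the median score of the MTRNR2L peaks became 301.99 in place of 158.715 and their median length 2627.5 in place of 1539 bp, over 2 peaks, so that they then scored above the nuclear peaks, whose median was 236.76, in place of below them. Among peaks at or above the list's median score, 13 members were left. No paired analysis was possible because there is 1 library of each kind. Unknown depth, the unstated score scale and the single library limit every value.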
